A study of Homo sapiens with 14 samples.

Results

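The 36 genes described here encode the enzymes that make, salvage and balance purine, pyrimidine and deoxynucleotides, together with the folate enzymes that carry one-carbon units for them. They were taken by symbol from a fixed list in 9 groups of enzymes. No measured value served as a criterion, but the list was drawn up with earlier results of these data known. All 36 were found in both deposited tables, which hold 17810 and 19143 genes. RNA-seq was performed in CHP-134, an established human neuroblastoma line with MYCN amplification, in a pair of experiments. In the first, 3 biological replicates of a line with inducible EGFP and 3 of a line with inducible OmoMYC received doxycycline at 1 µg/ml over 3 days. OmoMYC is an altered form of the dimerization and DNA-binding part of MYC, which takes partners and binding sites from MYC proteins. Both lines carry a doxycycline-responsive lentiviral vector and are drug-selected populations, so that the difference between separately made lines cannot be told apart from that between the proteins they express. In the second, parental CHP-134 cells, in which no protein carries the tag that dTAG47 needs, were treated with 500 nM dTAG47 or with DMSO for 18 h, in 4 biological replicates each. That comparison asks what the degrader dTAG47 does to gene expression when it has no tagged target.

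Cells build purines on phosphoribosyl pyrophosphate (PRPP) until the ring of IMP is complete, and then turn IMP into AMP or GMP. The pyrimidine ring is built first and joined to PRPP afterwards, which gives UMP and then CTP. Ribonucleotide reductase and thymidylate synthase turn part of these pools into the deoxynucleotides used for DNA, and folate enzymes supply the one-carbon units that purine rings and dTMP need. MYC proteins are known to bind the promoters of many of these genes, and the pathways are known for high activity in dividing tumor cells.

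MYC and its partner MAX bind the E-box CACGTG, so that RefSeq promoter windows (GRCh38.p14, 250 bases before to 50 after each transcript start) were searched for this word, which reads the same on both strands. Windows were found for 33 of the 36 members, of which 9 (27.3%) hold an E-box, against 8.77% of the 27305 genes with a window. Over single windows the share is 7.26% of 35116. The sequences below are 30 bases around an E-box (in capitals) on the strand of the gene, and were chosen to show 4 members that fell with OmoMYC, the first 2 of which share the site, and then 2 members that were not called.
PPAT (chr4:56435780-56435809, minus strand): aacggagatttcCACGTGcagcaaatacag
PAICS (chr4:56435772-56435801, plus strand): ctggaaagctgtatttgctgCACGTGgaaa
ATIC (chr2:215312001-215312030, plus strand): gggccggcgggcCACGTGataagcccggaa
DCK (chr4:70993521-70993550, plus strand): cgccccggccttCACGTGacctggcgtgcg
NME1 (chr17:51153579-51153608, plus strand): caagtgctgcgaacCACGTGggtcccgggc
DHODH (chr16:72008573-72008602, plus strand): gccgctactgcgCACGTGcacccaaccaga
PPAT and PAICS lie head to head on chromosome 4, and their E-box is one site at 56435792 to 56435797 read on opposite strands. ATIC holds another E-box downstream of its start, and DCTPP1, MTHFD1 and MTHFD1L hold 1 site each. With OmoMYC, 7 of the 9 members with an E-box fell and 2 were not called (median log2 fold change -0.25). Of the 24 without one, 18 fell, 2 rose and 4 were not called (median -0.37). Over all genes tested 25.7% fell and 27.3% rose. A search for 4 words bound by E2F factors (TTTGGCGC, TTTCCCGC, TTTGCCGC and TTTCGCGC, both strands), chosen after the fold changes were seen, found them in PRPS2, GART, TYMS, DUT and DCK, or 15.2% of matched members against 3.99% of all genes.

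Libraries held 28060817 to 38358128 counts in the first experiment and 40861430 to 53451641 in the second. Expression is given as CPM, counts scaled to library totals of equal size (per 1e6 counts) after TMM normalization. In the OmoMYC line MYC, whose counts can include reads of the OmoMYC transgene, was at 522 ± 7.85 CPM against 0.610 ± 0.0684 CPM with EGFP, MYCN was at 2240 ± 66.0 against 2713 ± 266 CPM (SD, n = 3 each), and GAPDH was not called (-0.06 on the log2 scale, adjusted p = 0.447). In all 14 libraries, 9 adrenergic neuroblastoma markers summed to 3562 to 4372 CPM, most of it from MYCN, which is one of them. TH and DBH, also among them, were at 1.41 CPM or less. Mesenchymal markers summed to 340 to 414 CPM, most of it from TWIST1 (204 to 294 CPM). The 5 Schwann cell markers summed to at most 13.0 CPM. In parental cells, epithelial markers summed to 3.56 CPM in dTAG47 replicate 2 and to at most 0.843 CPM in every other library. That library alone held reads of KRT18 (46 counts) and KRT19 (55 counts), and their source was not tested. Within the EGFP line, the deviation of a member from its group mean followed the GC content of its annotated transcripts. The Spearman correlation across the 36 members was -0.84 in replicate 1 and 0.88 in replicate 3. In the OmoMYC line it was -0.74 in replicate 2 and 0.66 in replicate 3. Values without EGFP replicate 1, and with the trend on length and GC content removed from every library, are therefore given beside the counts.

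To ask which of these enzymes differ when OmoMYC is induced in place of EGFP, the libraries of the OmoMYC and EGFP lines were compared. All 36 members passed the filter on low counts. Of these, 26 were lower in the OmoMYC line (FDR below 0.05, edgeR's quasi-likelihood test), 2 were higher, and 8 were not called. The terms suppressed and induced stand for these calls only, since the lines and the proteins they express cannot be told apart. Among all 13803 genes tested, 25.7% were suppressed and 27.3% induced, 53.0% in all. The median log2 fold change was -0.34 over the members and 0.01 over all genes tested. The falls were of moderate size, from -0.17 in DCTPP1 to -0.95 in HPRT1, and 6 members fell by more than 1.5-fold. For 28 members the OmoMYC libraries lay entirely on one side of the EGFP libraries, as for 62.3% of all genes tested, and these are the 28 members called. Together the members took 0.608% to 0.609% of all counts in the EGFP libraries and 0.489% to 0.4998% in the OmoMYC libraries. Without EGFP replicate 1, 29 members fell and 2 rose (27.8% and 26.4% of all genes tested), and with the trend on length and GC content removed 31 fell and 2 rose (28.7% and 30.5%).

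**Figure D1:**
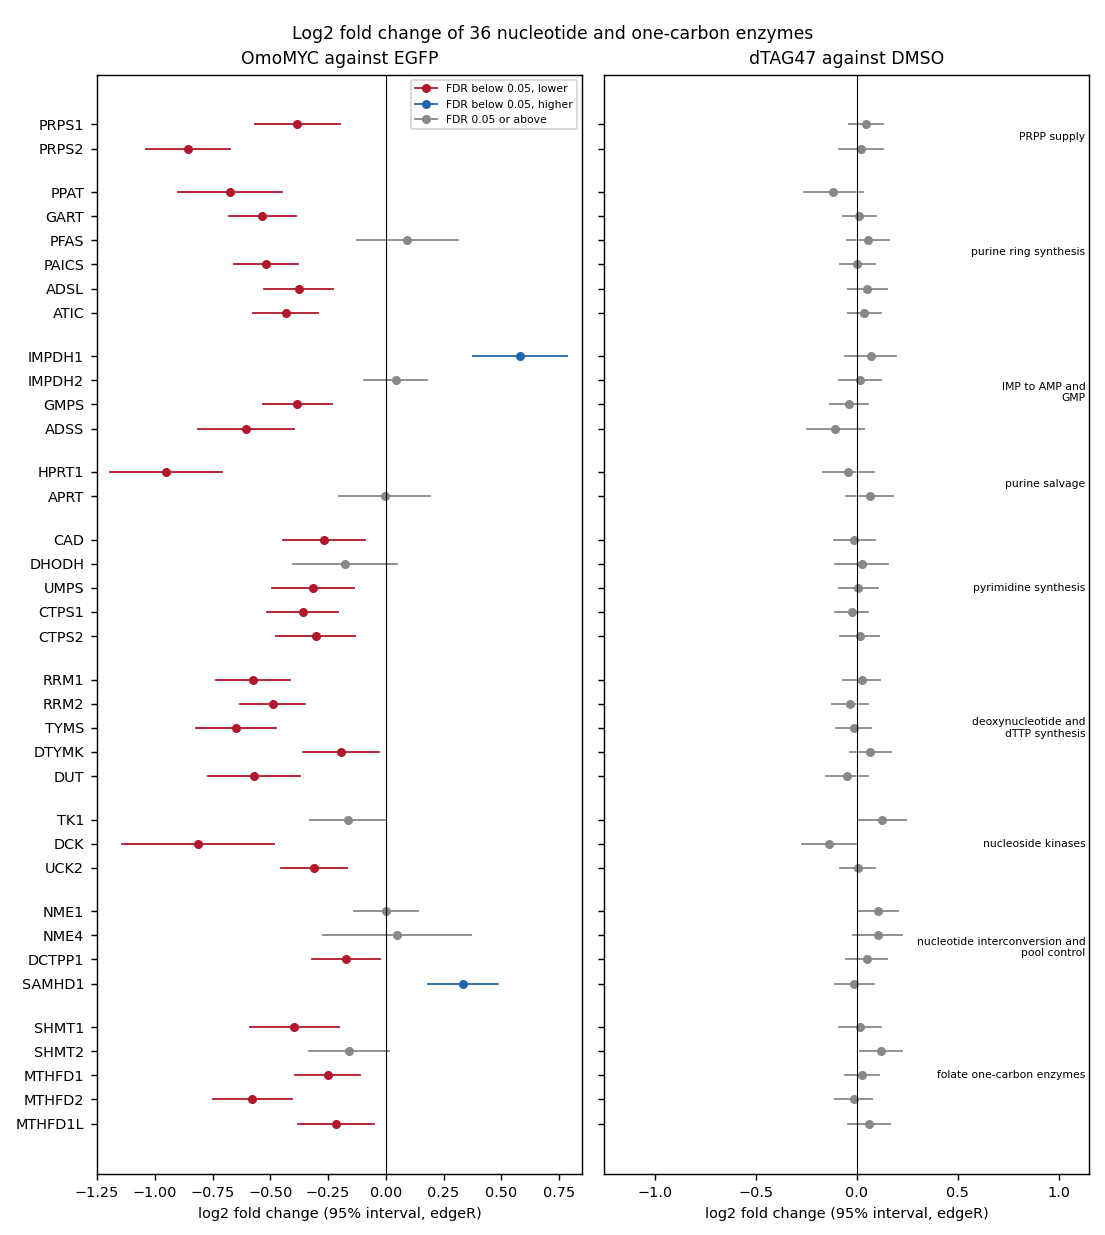
Log2 fold change of each of the 36 enzymes on the horizontal axis, in OmoMYC against EGFP (left, n = 3 each) and dTAG47 against DMSO (right, n = 4 each), with points for the edgeR estimate and bars for its 95% interval. Enzymes are grouped by role. On the left 26 points are called lower and 2 higher, and on the right all 36 lie between -0.14 and 0.12 and none is called.

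Both PRPP synthetases, PRPS1 and PRPS2, which make PRPP from ribose 5-phosphate, fell at the RNA level. PRPS2 (ENSG00000101911.8, chromosome X from 12809474 to 12842341 of GRCh37) was at 92.2, 85.8 and 82.0 CPM in EGFP replicates 1, 2 and 3, and at 48.5, 50.9 and 44.2 CPM in the OmoMYC replicates. The OmoMYC values were all far below the EGFP values, with a log2 fold change of -0.86 (SE 0.08, adjusted p = 1.83e-05). PRPS1 (ENSG00000147224.6, chromosome X from 106871658 to 106895223) was at 118, 105 and 104 CPM with EGFP and 87.7, 86.6 and 76.2 CPM with OmoMYC. Its fall was smaller, with a log2 fold change of -0.38 (SE 0.08, adjusted p = 0.00306), and it was -0.23 with the trend on length and GC content removed. The balance of the isozymes differed between the lines. Per length, the log2 ratio of PRPS1 to PRPS2 was -0.01 to 0.05 in the EGFP libraries and 0.47 to 0.56 in the OmoMYC libraries. In the DMSO libraries of parental cells, a separate experiment, this ratio was 0.39 to 0.52, nearer to the OmoMYC line than to the EGFP line. What sets the EGFP line apart was not tested.

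Of the 6 enzymes that build the purine ring, 5 were suppressed and PFAS was not called. PPAT (ENSG00000128059.4, chromosome 4 from 57259528 to 57301781) catalyses the first committed step, the transfer of an amino group to PRPP. It was at 181, 145 and 138 CPM with EGFP and 98.6, 102 and 90.8 CPM with OmoMYC, which gave a log2 fold change of -0.67 (SE 0.10, adjusted p = 0.000372). EGFP replicate 1 was the highest of the 6 libraries, and without it the fold change was -0.56, while it was -0.33 with the trend on length and GC content removed. PAICS (ENSG00000128050.4, chromosome 4 from 57301907 to 57330744), which carries out a pair of middle steps and is transcribed away from PPAT, had the highest level of the members per length of merged exons, though not per length of the canonical transcript. Its values were 816, 812 and 778 CPM with EGFP and 589, 565 and 527 CPM with OmoMYC, which is a log2 change of -0.52 (SE 0.06, adjusted p = 9.30e-05). Every OmoMYC library was lower than every EGFP library for both genes of this head-to-head pair. GART, which catalyses several steps of ring building, fell by 0.53 on the log2 scale, ATIC, which closes the ring to IMP, by 0.43, and ADSL, which acts both here and on the way to AMP, by 0.38. PFAS, the remaining enzyme of the ring, had 223, 264 and 302 CPM with EGFP and 278, 270.1 and 294 CPM with OmoMYC. These groups overlap and the log2 fold change was 0.09 (SE 0.10, adjusted p = 0.45). With the trend on length and GC content removed it was -0.20 and called lower (adjusted p = 7.19e-05).

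The steps that lead from IMP to AMP and GMP did not move together. IMPDH1 (ENSG00000106348.12, chromosome 7 from 128032331 to 128050040), an isozyme of the rate-limiting step to GMP, was at 98.2, 111 and 128 CPM with EGFP and 171, 163 and 169.7 CPM with OmoMYC. It was the member that rose most, with a log2 fold change of 0.58 (SE 0.09, adjusted p = 0.000461) and all OmoMYC libraries above all EGFP libraries. Leaving out single libraries gave rises of 0.48 to 0.65, and the rise was 0.31 with the trend on length and GC content removed. IMPDH2, the isozyme known for high expression in dividing cells, was at 155, 161 and 154 CPM with EGFP and 163, 159 and 160.5 CPM with OmoMYC and was not called (log2 fold change 0.04, adjusted p = 0.59). GMPS, which completes GMP, was at 312, 292 and 276 CPM with EGFP and 228, 231 and 217 CPM with OmoMYC. It fell by 0.38 on the log2 scale (adjusted p = 0.000948), and by 0.19 with the trend removed. ADSS (ENSG00000035687.9, chromosome 1 from 244571796 to 244615211) starts the branch to AMP. Its values were 74.7, 63.0 and 59.0 CPM with EGFP and 42.0, 44.6 and 42.9 CPM with OmoMYC, which is a log2 change of -0.60 (SE 0.09, adjusted p = 0.00043). That fall was 0.18 with the trend on length and GC content removed, still called (adjusted p = 0.00311).

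Purine salvage was split. HPRT1 (ENSG00000165704.10, chromosome X from 133594195 to 133654543), which returns hypoxanthine and guanine to the nucleotide pool, showed the largest fall of all members. It was at 71.6, 62.6 and 54.5 CPM in the EGFP replicates and 31.8, 35.9 and 29.9 CPM in the OmoMYC replicates, without overlap. The log2 fold change was -0.95 (SE 0.11, adjusted p = 6.63e-05), so that its CPM decreased by 48.3%, and -0.62 with the trend on length and GC content removed. APRT, which does the same for adenine, was at 85.9, 105 and 103 CPM with EGFP and 95.3, 93.5 and 104 CPM with OmoMYC. The groups overlap fully and the log2 fold change was -0.01 (SE 0.09, adjusted p = 0.966). It was -0.25 and called lower (adjusted p = 2.39e-05) with the trend removed.

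In pyrimidine synthesis 4 of 5 enzymes were suppressed, at log2 fold changes from -0.36 to -0.27. CAD (ENSG00000084774.9, chromosome 2 from 27440237 to 27466811), the protein that joins the first activities of the pathway, was at 346, 375 and 424 CPM with EGFP and 315, 307 and 331 CPM with OmoMYC. The groups do not overlap and the log2 fold change was -0.27 (SE 0.08, adjusted p = 0.0165). CAD was not called without OmoMYC replicate 1 (adjusted p = 0.0615). With the trend on length and GC content removed its fold change was -0.55 (adjusted p = 2.43e-11). UMPS, which completes UMP, fell from 61.0 ± 4.49 to 49.0 ± 2.22 CPM (SD, n = 3 each). Both CTP synthases fell, CTPS1 by 0.36 and CTPS2 by 0.30 on the log2 scale, and their within-library ratio changed by -0.06 with overlapping groups. With the trend removed CTPS1 stood at -0.39 and CTPS2 at -0.13 (adjusted p = 0.0326), and their ratio changed by -0.25 without overlap. DHODH, the mitochondrial dehydrogenase of the pathway and the least expressed member per length, had a log2 fold change of -0.18 (SE 0.10, adjusted p = 0.163). It was called lower without EGFP replicate 1 (-0.26, adjusted p = 0.0240) and with the trend removed (-0.33, adjusted p = 0.000504).

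All 5 enzymes of deoxynucleotide and dTTP synthesis were suppressed. RRM1 (ENSG00000167325.10, chromosome 11 from 4115937 to 4160162), the large subunit of ribonucleotide reductase, was at 306, 282 and 264 CPM with EGFP and 194, 197 and 181 CPM with OmoMYC. Its log2 fold change was -0.57 (SE 0.07, adjusted p = 0.00012), and it was -0.35 with the trend on length and GC content removed. RRM2, the small subunit, fell from 341 ± 16.1 to 243 ± 6.87 CPM (SD, n = 3 each), or by 0.49 on the log2 scale (adjusted p = 0.000143). TYMS (ENSG00000176890.11, chromosome 18 from 657653 to 673578), which makes dTMP from dUMP with a folate one-carbon unit, was at 133, 116 and 115 CPM with EGFP and 75.9, 81.4 and 74.9 CPM with OmoMYC. This was the largest fall of the group, at -0.65 (SE 0.08, adjusted p = 9.30e-05). Exons of TYMS overlap those of ENOSF1 and TYMSOS on the other strand, and the counting is not stated to use strand, so that their reads cannot be told apart. The same holds for SAMHD1 and TLDC2, MTHFD2 and SLC4A5, and DCTPP1 and ZNF771, and for shorter overlaps with genes on the other strand in UCK2, SHMT1, SHMT2 and MTHFD1. ADSL, IMPDH2, DCK, NME1 and NME4 share exon bases with a gene on their own strand. DUT, which degrades dUTP to dUMP, fell by 0.57 on the log2 scale (adjusted p = 0.000484), and by 0.37 with the trend removed. DTYMK, the dTMP kinase, had the weakest call of the group, with a log2 fold change of -0.19 (SE 0.07, adjusted p = 0.048), and was not called with 4 of the 6 single libraries left out. It was -0.29 with the trend removed (adjusted p = 1.77e-06).

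Among nucleoside kinases, DCK and UCK2 fell and TK1 was not called. DCK (ENSG00000156136.5, chromosome 4 from 71858255 to 71896631), which phosphorylates deoxycytidine and other deoxynucleosides, was at 39.6, 29.3 and 25.8 CPM with EGFP and 18.8, 19.4 and 15.8 CPM with OmoMYC. All OmoMYC values were lower than all EGFP values, with a log2 fold change of -0.81 (SE 0.15, adjusted p = 0.0012). DCK had the lowest GC content of the members (37.1%), and its fold change was -0.63 without EGFP replicate 1 and -0.35 with the trend on length and GC content removed, called in each case. UCK2, a kinase of uridine and cytidine, fell by 0.31 on the log2 scale (adjusted p = 0.00257). TK1, the thymidine kinase of S phase cells, was at 135, 151 and 156 CPM with EGFP and 131, 129 and 135 CPM with OmoMYC, with a log2 fold change of -0.17 (SE 0.07, adjusted p = 0.0808). TK1 was called lower without EGFP replicate 1 (-0.24, adjusted p = 0.00160), by DESeq2 (-0.18, adjusted p = 0.0481) and with the trend on length and GC content removed (-0.37, adjusted p = 2.83e-08).

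The enzymes that interconvert nucleotides or limit their pools showed no common direction. NME1, a nucleoside diphosphate kinase, was at 221, 236 and 227 CPM with EGFP and 236, 228 and 221 CPM with OmoMYC. Its log2 fold change was 0.00 with a 95% interval from -0.14 to 0.14, and its exons overlap those of the NME1-NME2 readthrough gene. NME4, its mitochondrial relative, had a log2 fold change of 0.05 (SE 0.14, adjusted p = 0.794), and -0.24 with the trend removed, again not called (adjusted p = 0.074). SAMHD1 (ENSG00000101347.7, chromosome 20 from 35518632 to 35580296), a hydrolase that degrades deoxynucleoside triphosphates, was at 50.01, 53.3 and 52.4 CPM with EGFP and 66.6, 64.8 and 64.8 CPM with OmoMYC. It is the other member that rose, with a log2 fold change of 0.33 (SE 0.07, adjusted p = 0.00242) and no overlap between the groups. The rise was 0.41 with the trend on length and GC content removed (reads of TLDC2 on the other strand cannot be told apart). DCTPP1, which hydrolyses dCTP, fell by 0.17 on the log2 scale (adjusted p = 0.0484), a call that was lost with 4 of the 6 single libraries left out.

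Folate one-carbon enzymes were suppressed in 4 of 5 cases. MTHFD2 (ENSG00000065911.7, chromosome 2 from 74413299 to 74444692), a mitochondrial enzyme of folate oxidation, was at 164, 147 and 138 CPM with EGFP and 101, 102 and 97.3 CPM with OmoMYC. Its log2 fold change was -0.58 (SE 0.08, adjusted p = 0.000166), without overlap between the groups, with exons that overlap those of SLC4A5 on the other strand. MTHFD1L, the mitochondrial enzyme that releases formate, fell by 0.21 on the log2 scale (adjusted p = 0.031) and was not called without OmoMYC replicate 1 or 3 (adjusted p = 0.0997 and 0.0687). In the cytosol, MTHFD1, which carries several folate activities, fell by 0.25, and SHMT1, which takes a one-carbon unit from serine, fell by 0.40. SHMT2, the mitochondrial counterpart of SHMT1, was at 127, 141 and 153 CPM with EGFP and 127, 123 and 126 CPM with OmoMYC. The groups overlap and the log2 fold change was -0.16 (SE 0.08, adjusted p = 0.106). It was called lower without EGFP replicate 1 (-0.24, adjusted p = 0.00187) and with the trend on length and GC content removed (-0.39, adjusted p = 1.08e-08).

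**Figure D2:**
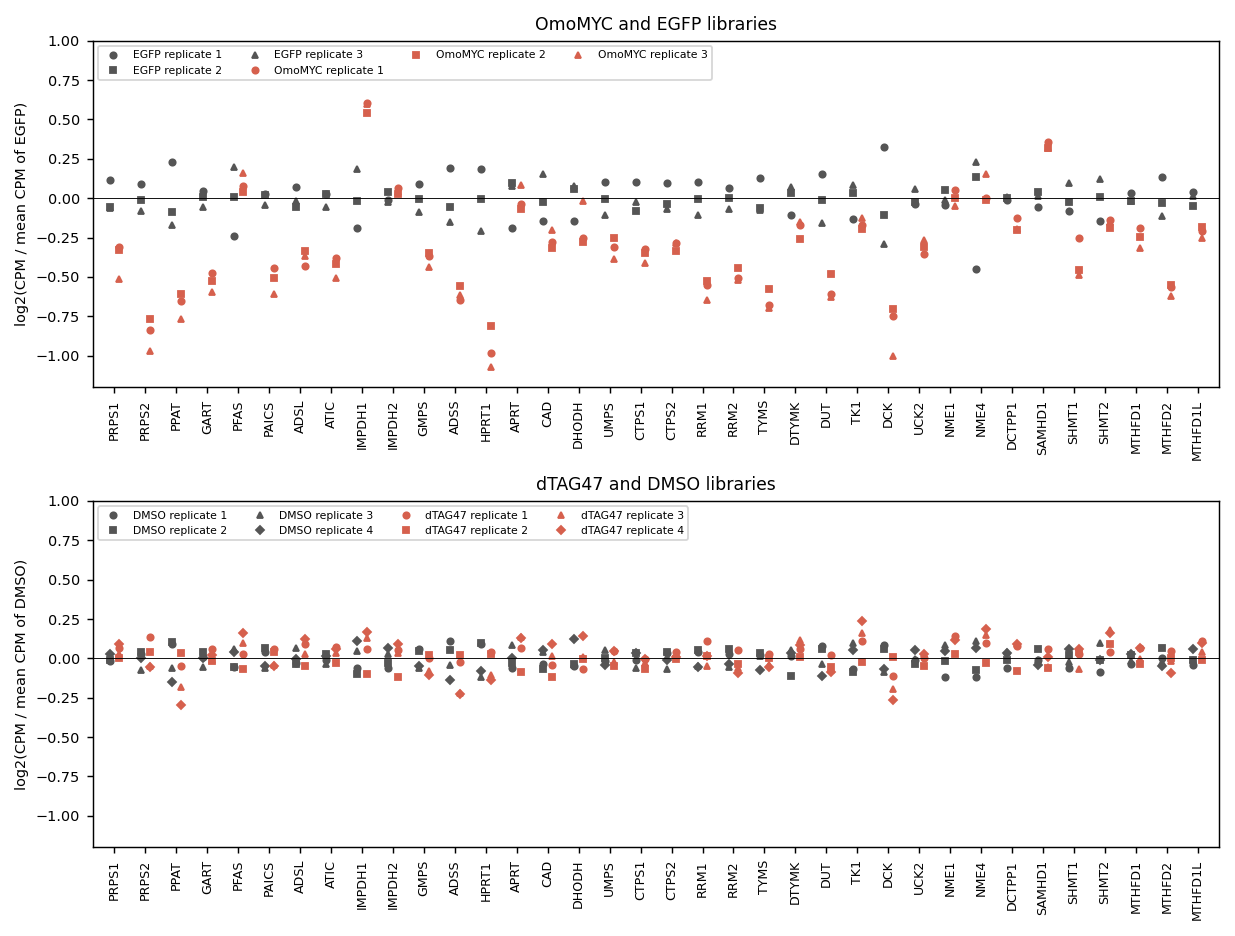
Expression of each of the 36 enzymes in every library, as log2 of CPM over the mean CPM of the control group, for EGFP and OmoMYC libraries (upper panel) and DMSO and dTAG47 libraries (lower panel), with 1 symbol per replicate. In the upper panel the OmoMYC libraries lie below the EGFP libraries for 26 enzymes and above them for IMPDH1 and SAMHD1, and in the lower panel the groups overlap for all 36.

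The groups of enzymes were also summed within each library. Deoxynucleotide and dTTP enzymes summed to 875 to 973 CPM in the EGFP libraries and 631 to 665 CPM in the OmoMYC libraries. Purine ring enzymes summed to 1893 to 1938 and 1401 to 1484 CPM. Both groups of sums were lower in every OmoMYC library. Enzymes from IMP to AMP and GMP summed to 616 to 639.8 CPM with EGFP and to 589.9 to 603 CPM with OmoMYC, a narrower gap in which the rise of IMPDH1 is included. Enzymes of interconversion and pool control summed to 468 to 547 CPM with EGFP and 521 to 536 CPM with OmoMYC and overlap.

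**Figure D3:**
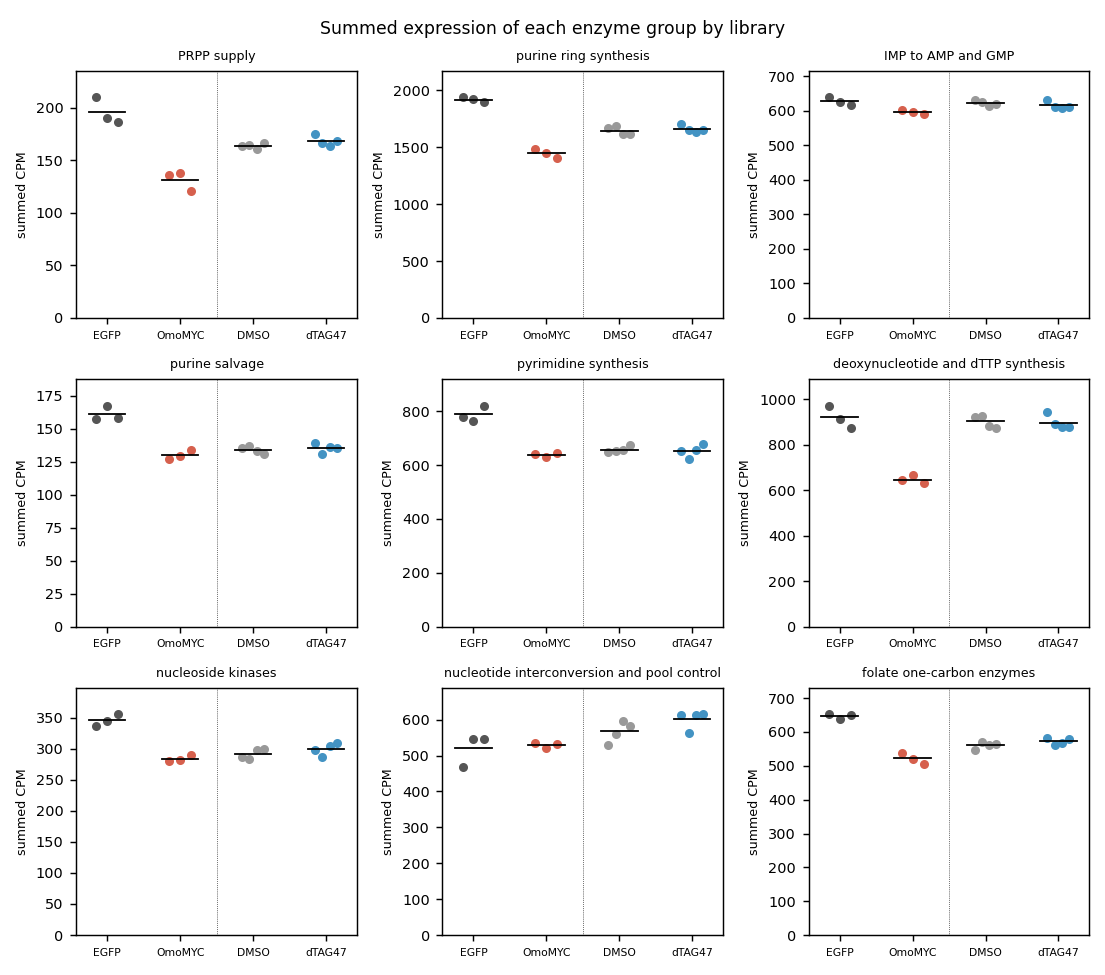
Summed CPM of each of the 9 enzyme groups (vertical axis, from 0) in every library of the 4 groups, with a line at the mean. The OmoMYC libraries lie below the EGFP libraries in 8 of the groups and overlap them in nucleotide interconversion and pool control; the experiments on either side of the dotted line were scaled separately and are not compared.

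Since a ratio within a library does not depend on how libraries are scaled, 8 pairs of related members were compared as log2 ratios of levels per length. The ratio of IMPDH2 to IMPDH1 was -0.33 to 0.06 in the EGFP libraries and -0.67 to -0.63 in the OmoMYC libraries, a mean change of -0.55. That of PRPS1 to PRPS2 changed by 0.47, that of SHMT2 to SHMT1 by 0.24, and that of RRM2 to RRM1 by 0.08, each without overlap. The other 4 ratios overlap between the groups. With 3 libraries against 3, the exact 2-sided permutation test cannot give a p-value below 0.1, which is the value of these 4 ratios (adjusted p = 0.2 over the 8 pairs), so that none can pass the threshold. With the trend on length and GC content removed, an alternative added after the data were seen, the changes were -0.38 for IMPDH2 to IMPDH1, 0.45 for PRPS1 to PRPS2 and 0.17 for SHMT2 to SHMT1, while RRM2 to RRM1 turned to -0.10 and NME1 to NME4 came to 0.31, all without overlap (p = 0.1 each, exact permutation test). In parental cells all 8 ratios overlap between DMSO and dTAG47, with changes from -0.06 to 0.12 and adjusted p-values of 0.171 and above (exact permutation test, smallest possible p = 0.0286). With the trend removed there, RRM2 to RRM1 (-0.06) was the one ratio without overlap.

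**Figure D4:**
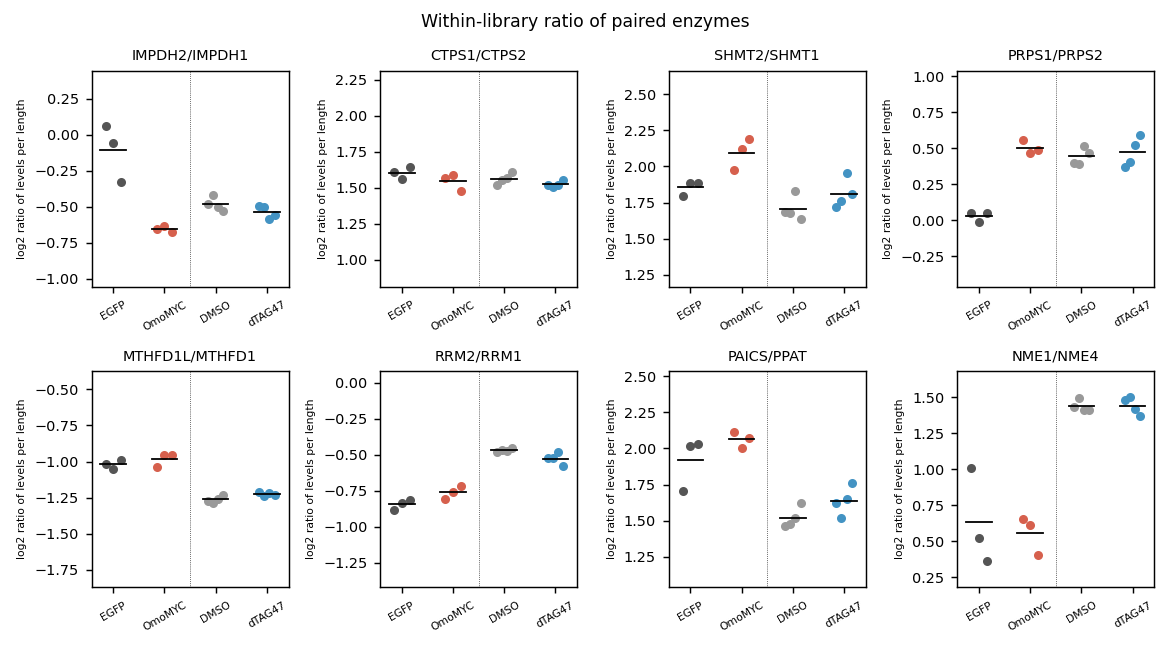
Log2 ratio of the levels per length of 8 pairs of enzymes (vertical axis, each panel spanning 1.5 units) in every library of the 4 groups, with a line at the mean. The ratio of IMPDH2 to IMPDH1 is lower and that of PRPS1 to PRPS2 higher in all OmoMYC libraries than in all EGFP libraries.

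Compared per kilobase of merged exons, levels in the EGFP libraries ranged from 3.06 ± 0.251 RPKM for DHODH to 107 ± 2.78 RPKM for PAICS (SD, n = 3). After PAICS came TK1 (79.9 ± 6.12 RPKM) and ATIC (76.6 ± 2.39 RPKM), which do not differ beyond their spread, and then RRM1 and NME1. Merged exons of some members are much longer than their main transcript. Over the length of the canonical transcript, an alternative added after the data were seen, NME1 came first at 256 RPKM and PAICS had 126 RPKM, while DHODH remained last at 4.54 RPKM. The order of levels therefore depends on the transcript length used, whereas fold changes do not.

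The order of the members by log2 fold change with OmoMYC followed their GC content. The annotated transcripts of the 36 members hold 37.1% to 64.0% GC. Across the members, the Spearman correlation of log2 fold change with GC content was 0.73. It was 0.09 with the trend on length and GC content of all genes removed. The members that fell had a median GC content of 46.9%, and the other 10 one of 58.2%. The points share 6 libraries, and the correlation is given as a description. With the trend removed the median log2 fold change of the members was still -0.34, PRPS2 (-0.68), HPRT1 (-0.62) and TYMS (-0.59) had the largest falls, and SAMHD1 (0.41) and IMPDH1 (0.31) rose. A rank correlation does not carry the size of the changes, and its source was not tested. With dTAG47 against DMSO no member was called and the log2 fold changes lay between -0.14 and 0.12. The Spearman correlation with GC content was 0.76 there, and 0.14 with the trend removed.

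**Figure D5:**
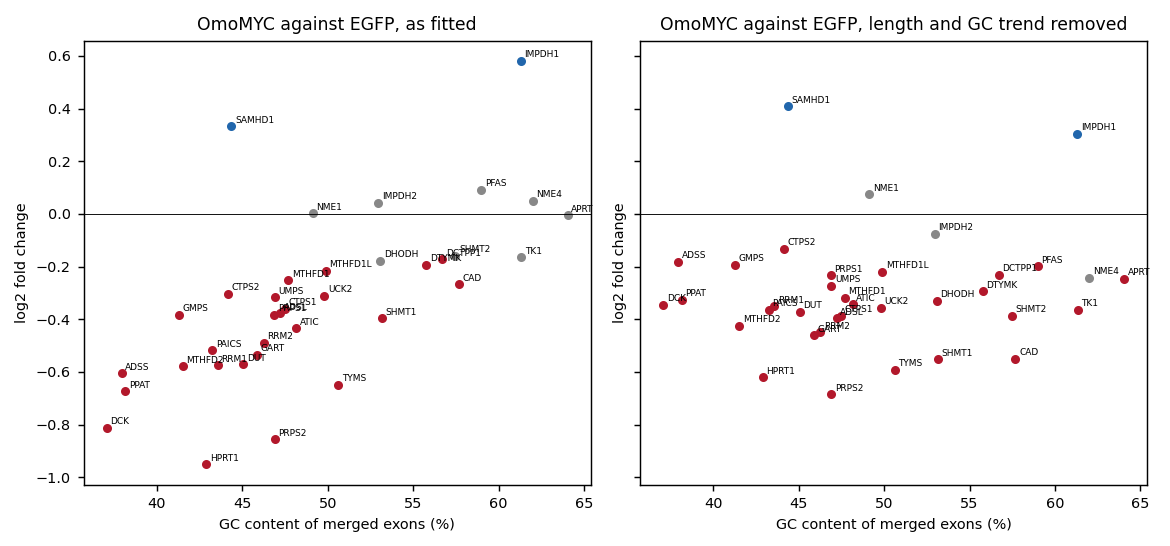
Log2 fold change of each of the 36 enzymes (OmoMYC against EGFP) over the GC content of its annotated transcripts in percent. Values are as fitted (left) and with the trend on length and GC content removed from every library (right). The axis label names merged exons, but GC content was taken over the annotated transcripts. Red points are called lower, blue points higher and grey points are not called. The upward slope on the left (Spearman 0.73) is nearly flat on the right (0.09), where 31 points are called lower.

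Genes of the same pathways outside the 36 members were taken from 5 lists with 89 genes, of which 76 passed the filter with OmoMYC. Of these 27 were suppressed, 18 induced and 31 not called, with a median log2 fold change of -0.11. Among all genes tested 25.7% were suppressed and 27.3% induced, and the counts of single lists stand against the same shares. In the folate cycle and transport, 6 of 17 genes tested fell and 6 rose. GGH, which trims folate polyglutamates, had a log2 fold change of -0.94. ALDH1L1, which oxidises formyl-folate, rose from 0.590 ± 0.201 to 2.11 ± 0.490 CPM (1.82). The folate transporter SLC46A1, also at a low level, rose from 1.95 ± 0.0542 to 2.95 ± 0.542 CPM (0.60). Among genes of serine, glycine and methionine metabolism, 8 fell and 1 rose of 14. PSAT1, an enzyme of serine synthesis, fell from 120.3 ± 8.97 to 73.8 ± 4.72 CPM (-0.71). GLDC (-0.85) fell and AMT rose from 2.47 ± 0.646 to 5.96 ± 0.607 CPM (1.27), although both belong to the glycine cleavage system.

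The list of purine interconversion and breakdown, which also holds some pyrimidine nucleotidases, went both ways. In it 10 of 26 were lower and 8 higher, against 25.7% and 27.3% of all genes tested. NT5E, the surface enzyme that turns AMP into adenosine, rose from 0.730 ± 0.245 to 3.73 ± 0.424 CPM (2.35 on the log2 scale, adjusted p = 2.22e-05). ADSSL1, the muscle isozyme of ADSS, rose from 2.37 ± 0.467 to 6.25 ± 0.747 CPM (1.41). The adenylate kinase AK4 (-0.78) and NT5C3A (-0.72), one of the pyrimidine nucleotidases in this list, fell. In pyrimidine salvage and breakdown, 2 of 14 fell, NME7 (-0.35) and CMPK1 (-0.25), and 2 rose, the mitochondrial thymidine kinase TK2 (0.55) and UCKL1 (0.32). Of 5 nucleoside transporters, SLC29A1 fell (-0.24) and SLC29A3 rose (0.39).

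Replication genes moved with the members. Of 26 S phase and replication genes tested, 16 fell and 0 rose with OmoMYC (edgeR), against 25.7% and 27.3% of all genes tested. Their median log2 fold change was -0.26. Their sum was 4525 to 5026 CPM in the EGFP libraries and 3866 to 3926 CPM in the OmoMYC libraries. Among the 30 members outside deoxynucleotide and dTTP synthesis and TK1, 21 fell and 2 rose, with a median of -0.31. The part of a change in the share of cycling cells in these values was not tested, and in bulk samples fewer cells of a state and less RNA per cell cannot be told apart.

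In parental cells, dTAG47 was compared with DMSO. None of the 36 members was called by edgeR, where 0.117% of the 14470 genes tested were called higher and 0.0415% lower (0.159% in all). DESeq2 and limma-voom called 0 members as well, and 0.453% and 0.152% of all genes. The groups separated for 0 members, against 3.34% of all genes. An unadjusted p-value below 0.05 was found for 4 members, against 7.28% of all genes. The median log2 fold change was 0.02, with single values from -0.14 in DCK to 0.12 in TK1, and the 95% intervals of all 36 members lay between -0.27 and 0.25. Members took 0.552% to 0.567% of all counts in the 8 libraries.

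The members at the ends of this narrow range were DCK, TK1 and SHMT2. TK1 was at 114, 112, 127 and 124 CPM in DMSO replicates 1 to 4 and 129, 117, 133 and 140.4 CPM in dTAG47 replicates 1 to 4, with a log2 fold change of 0.12 (SE 0.06, adjusted p = 0.673). SHMT2 was at 81.6, 85.9, 92.7 and 86.0 CPM with DMSO and 89.0, 92.3, 98.0 and 96.9 CPM with dTAG47 (0.12, adjusted p = 0.673). The groups overlap for both genes. DCK was at 40.0, 39.3, 35.5 and 35.9 CPM with DMSO and 34.9, 37.8, 32.9 and 31.4 CPM with dTAG47 (-0.14, adjusted p = 0.673), again with overlap. HPRT1, which had the largest fall with OmoMYC, was at 66.8, 67.3, 57.8 and 59.4 CPM with DMSO and 64.6, 64.1, 58.3 and 57.2 CPM with dTAG47. IMPDH1 was at 109.8, 107, 118 and 124 CPM with DMSO and 119.7, 107, 126 and 129 CPM with dTAG47. Neither was separated between the groups.

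Replicates 1 and 2 of both groups differed from replicates 3 and 4 by GC content: the deviation of members from their group mean had a Spearman correlation with GC content of -0.88 to -0.75 in replicates 1 and 2 and of 0.76 to 0.86 in replicates 3 and 4. The labels name no batch. With a factor for these pairs of replicates in the fit, NME1, NME4, SHMT2 and TK1 were called higher and ADSS, DCK and PPAT lower, where 2.58% and 2.90% of all genes were called, at about the same fold changes (-0.14 to 0.12 on the log2 scale). Within replicates 1 and 2 alone 0 members were called (0.0483% of all genes), and within replicates 3 and 4 alone SHMT2 and TK1 were called higher and ADSS and PPAT lower (2.93% and 3.24% of all genes). Of the 75 other pathway genes tested in parental cells, 0 were called by edgeR, against 0.159% of all genes. An unadjusted p-value below 0.05 was found for 6 of them, against 7.28% of all genes. The lowest adjusted p was that of AK4, at 59.5, 64.6, 58.0 and 57.7 CPM with DMSO and 72.1, 85.1, 75.5 and 68.0 CPM with dTAG47 (log2 fold change 0.33, adjusted p = 0.0567). DESeq2 called 1 of these genes, and 0.453% of all genes.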

How the data were processed

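RNA was depleted of ribosomal RNA and sequenced on a NovaSeq6000. Per the study's methods, Cutadapt was used for trimming, STAR for alignment (hg19) and FeatureCounts for counting. The authors deposited the resulting counts per gene without normalization. The annotation, strandedness and handling of reads shared between genes are not given in the sources used here. All 14 columns were mapped to replicates, and PDPK1 depletion was not analysed here. The tables hold different gene sets and were fitted separately.

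In R 4.3.3, each experiment was filtered (filterByExpr), scaled by TMM and tested with edgeR 4.0.16 (robust quasi-likelihood), without covariates, and p-values were adjusted by Benjamini-Hochberg over all genes tested, at an FDR of 0.05. The study names DESeq2, which was run as an alternative (1.42.0), as were limma-voom (limma 3.58.1), scaling by RLE, by upper quartiles or by library size alone, dropping the filter or requiring 10 counts in all libraries, a block for replicate number, removal of a loess trend (span 0.3) on exon length and GC content, leaving out each library, and, in parental cells, a factor for replicates 1 and 2 against 3 and 4 and fits within each of these pairs. Within-library ratios were tested by an exact 2-sided permutation test. RPKM values were computed here from the deposited counts. Lengths, GC content and coordinates come from GENCODE annotation on GRCh37, the sequence of hg19, and promoter windows come from RefSeq on GRCh38.p14; no coordinate was converted. ADSS was matched there as ADSS2, and ADSL, IMPDH2 and SHMT2 had no window.

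The members, lists and alternatives were chosen with earlier results of these data known. All 36 members are named; values in every library are given for the 8 largest falls, the rises and the most expressed member of each group. Of the other pathway lists, up to 2 called falls and 2 called rises per list with a mean of at least 1 CPM are named, and those that are called with dTAG47. One gene that this rule names is not reported here. HPRT1 and IMPDH1 were picked from the first comparison to be shown in the second, and TK1, SHMT2, DCK and AK4 were picked there after their values were seen. For each comparison the edgeR, DESeq2 and limma-voom fits were checked on simulated counts with known changes and no GC trend. The other alternatives, including the fit with the trend removed, were not checked in this way. Totals of 28060817 to 53451641 counts per library limit the precision little at the levels of these members, so that the spread between replicates sets the errors.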

Additional observations from a re-analysis of the deposited data

Results flagged for a closer look

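In groups of 4 libraries, a library was singled out when its gap to the nearest other value took more of the range of the group than Dixon's 95% critical value for 4 values. Of 72 groups of member values in parental cells 2 were singled out, where chance alone flags about 1 in 20. DHODH was at 20.2 CPM in DMSO replicate 4 and at 17.9 to 18.1 CPM in the other DMSO replicates. DCTPP1 was at 92.6 CPM in dTAG47 replicate 2 and at 104 to 105 CPM in the other dTAG47 replicates. Neither gene was called.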

How the results depend on the processing

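With OmoMYC, between 22 (without OmoMYC replicate 1) and 29 (without EGFP replicate 1) members fell with single libraries left out, and 24 to 31 under the other alternatives, where 20.4% (without OmoMYC replicate 1) to 29.9% (without EGFP replicate 3) and 20.2% (no filter) to 28.7% (trend removed) of all genes tested fell; 2 rose under each of these 15 settings, and the median stayed between -0.39 and -0.32. Of the 36 members, 27 kept their side of the threshold under all of them, and 24 of these also their direction. PFAS reversed when the trend on length and GC content was removed (-0.20), as did the ratio of RRM2 to RRM1 (-0.10); the cause was not tested beyond that construction. With dTAG47, members called higher and lower were 2 and 2 with the replicate block (2.11% and 2.50% of all genes), 4 and 3 with the factor for replicates 1 and 2 against 3 and 4, and 2 and 2 within replicates 3 and 4. Other pathway genes called higher were 1 by DESeq2 (0.338% of all genes), 1 without a filter (0.118%), 2 with the replicate block (2.11%) and 2 with the trend removed (0.608%). They were 5 with the factor (2.58%) and 3 within replicates 3 and 4 (2.93%). With single libraries left out they were 0 to 1, with 1 without dTAG47 replicate 2 (0.358%) and 1 without dTAG47 replicate 4 (0.0688%). The cause of these differences was not tested. Replicate numbers were not taken to pair the libraries, since deviations of same-numbered libraries correlated at 0.08, -0.07 and 0.29 in the first experiment and at 0.009, 0.11, 0.10 and 0.16 in parental cells, not all above 0.1, and not every library correlated best with its own number. With the replicate block 25 members fell and 2 rose with OmoMYC (28.0% and 30.7% of all genes).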
